A study of Mus musculus with 4 samples.

Results

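Among 15995 CpG islands measured on the autosomes of mouse male germ cells, 14678 were unmethylated in both control samples. At 363 of these (2.47%) both samples lacking Np95 lay at least 2.5 percentage points above both controls. Np95, also named Uhrf1, recruits Dnmt1, which copies methylation onto the new strand after replication. The germ cells came from testes of 21-day-old mice in 2 groups of 2 samples each. The 2 knockout samples were Np95fl/fl:Stra8-Cre, in which a recombinase under the Stra8 promoter, active in premeiotic germ cells, deletes the floxed gene. The 2 control samples were Np95fl/fl, so all 4 samples carried the floxed allele and the knockout samples alone carried the transgene. Tubules were picked by hand, dissociated and filtered through a mesh, and no sort by a marker is stated, so other tubule cells may remain. Methylation was read by whole-genome bisulfite sequencing, and every value is the percent of reads methylated at a cytosine, in coordinates of the mouse build mm10.

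An island was a stretch in which 30 listed CpGs fell within 500 bp, with overlapping stretches merged and at least 10 CpGs having a value in all 4 samples. Its level was the mean over those cytosines. An island entered the set when both control means were under 10% and the lower knockout mean lay at least 2.5 percentage points above the higher control mean. This distance is called the gap below. The islands were chosen by the knockout and control means of these same 4 samples, so their differences are given as a description without a test. Nothing in the labels ties each sample to its own animals, so the spread within a group may be technical.

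CpG islands are CpG-rich stretches, most of them at promoters, that stay free of methylation in most cells. A small class at germline genes behaves differently. These islands are unmethylated in germ cells and become methylated in somatic tissues, where the repressor complex PRC1.6, with its DNA-binding partners MGA, MAX and E2F6, also acts on many of them. Maternally methylated imprinted regions are likewise unmethylated in the male germ line and methylated on the maternal copy in somatic cells.

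Of the 363 islands 17 lay at listed germline genes. The promoter windows of the 5 islands with the largest gaps at listed germline genes are shown because the methylated CpGs themselves lie in them. Each runs 5′ to 3′ on the gene's strand from 250 bases before to 50 bases from the start, as given by RefSeq for GRCm38.p6, the assembly of mm10. Capitals mark the CpGs with a value in all 4 samples.
Naa11, chr5:97392281-97392580, minus strand: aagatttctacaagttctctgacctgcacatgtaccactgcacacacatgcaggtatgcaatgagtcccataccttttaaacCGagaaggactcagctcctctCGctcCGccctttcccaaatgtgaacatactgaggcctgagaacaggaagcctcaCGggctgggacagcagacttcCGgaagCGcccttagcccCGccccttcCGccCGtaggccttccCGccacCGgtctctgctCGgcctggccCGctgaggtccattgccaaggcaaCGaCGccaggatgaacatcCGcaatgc
Ankrd31, chr13:96748043-96748342, plus strand: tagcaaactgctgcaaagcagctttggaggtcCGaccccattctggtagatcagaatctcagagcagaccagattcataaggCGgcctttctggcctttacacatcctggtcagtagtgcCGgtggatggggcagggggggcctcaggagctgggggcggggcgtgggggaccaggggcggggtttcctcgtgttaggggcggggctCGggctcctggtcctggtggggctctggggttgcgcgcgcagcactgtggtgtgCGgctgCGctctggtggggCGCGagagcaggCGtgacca
Mael, chr1:166238695-166238994, minus strand: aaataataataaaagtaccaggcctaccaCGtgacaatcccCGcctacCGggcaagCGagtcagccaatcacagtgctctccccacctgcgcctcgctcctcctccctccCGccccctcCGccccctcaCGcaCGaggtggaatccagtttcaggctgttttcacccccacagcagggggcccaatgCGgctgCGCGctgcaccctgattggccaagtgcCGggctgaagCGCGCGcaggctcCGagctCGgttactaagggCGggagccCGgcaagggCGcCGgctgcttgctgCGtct
Sycp3, chr10:88459337-88459636, plus strand: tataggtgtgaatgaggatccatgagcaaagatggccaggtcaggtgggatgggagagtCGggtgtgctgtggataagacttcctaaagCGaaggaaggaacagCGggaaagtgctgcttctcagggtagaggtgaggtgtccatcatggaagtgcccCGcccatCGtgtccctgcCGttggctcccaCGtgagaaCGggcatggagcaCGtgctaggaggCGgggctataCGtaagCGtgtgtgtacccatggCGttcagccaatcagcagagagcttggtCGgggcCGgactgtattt
Sohlh2, chr3:55181794-55182093, plus strand: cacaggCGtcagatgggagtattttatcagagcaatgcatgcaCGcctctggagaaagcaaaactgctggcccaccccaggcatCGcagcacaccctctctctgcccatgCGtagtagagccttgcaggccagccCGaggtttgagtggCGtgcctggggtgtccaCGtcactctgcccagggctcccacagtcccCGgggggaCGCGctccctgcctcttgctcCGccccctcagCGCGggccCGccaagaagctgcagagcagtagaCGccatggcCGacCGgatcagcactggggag

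The windows were picked for large island gaps. All but the Mael window reach past an edge of the island, so their values can mix island and flank CpGs. They describe the promoter window and do not locate the difference within the island. The 16 CpGs of the Naa11 window, all measured, averaged 26.6% and 19.97% in the knockouts and 6.58% and 4.02% in the controls. In the Sycp3 window all 15 CpGs were measured, with means of 12.1% and 18.6% in the knockouts and 2.97% and 2.22% in the controls. The 17 CpGs of the Sohlh2 window averaged 22.0% and 17.0% in the knockouts and 9.04% and 5.15% in the controls. Both knockouts lay above both controls in each of the 5 windows and in 45 of all 61 promoter windows that overlap a member. In 14 of the 61 the groups overlapped, and in 2, at Gfap and 1700020D05Rik, both knockouts lay below both controls. The members were chosen by this same contrast, so these counts follow in part from the rule. Both knockouts were above both controls at 20.8% of all unmethylated islands, and the share over all promoter windows was not computed. At Mael, with 22 of 24 CpGs measured, the knockouts differed from each other, at 12.3% and 23.9%, and so did the controls, at 0.768% and 7.73%. At Ankrd31 only 9 of 17 CpGs in the window had a value in every sample, and the means were 20.8% and 12.1% in the knockouts and 6.45% and 1.38% in the controls.

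The genome around the islands lost methylation. Between 28999710 and 29774194 cytosines had a value per sample. The mean level on the autosomes was 38.1% and 38.4% in the knockouts, against 69.1% and 72.9% in the controls. The read depth behind single values is unknown, so no confidence interval was computed.

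Across the 363 islands the mean level was 14.9% and 11.9% in the 2 knockouts and 5.75% and 4.95% in the 2 controls. As group means these were 13.4% ± 2.18 in knockouts and 5.35% ± 0.565 in controls (SD, n = 2 each). The other 14315 unmethylated islands averaged 1.501% and 1.376% in the knockouts and 1.34% and 1.35% in the controls. The chosen islands were therefore already more methylated than typical unmethylated islands in control germ cells. The median island of the set was 7.66 points higher in knockouts than in controls, with a range from 2.61 to 43.0 points. At 298 of the 363 islands (82.1%) the knockout mean was at least 2 times the control mean.

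Gains were small at most islands. The gap was between 2.5 and 5 points at 217 islands, between 5 and 7.5 points at 88, between 7.5 and 10 points at 40, between 10 and 15 points at 16, and above 15 points at 2. Both knockout means passed 20% at only 3 islands. Knockout 1 was the higher of the 2 knockouts at 286 of the 363 islands, and control 1 was the higher control at 230. The knockout means lay within 5 points of each other at 254 islands and 10 or more points apart at 21.

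**Figure D1:**
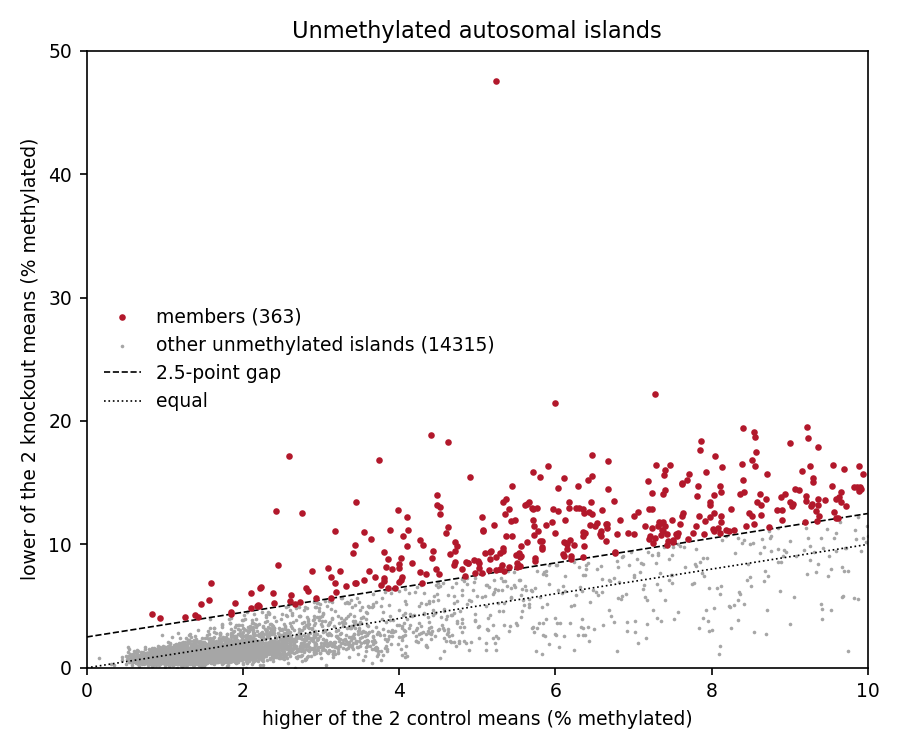
Each point is 1 of the 14678 unmethylated autosomal islands, with the higher of its 2 control means on the horizontal axis and the lower of its 2 knockout means on the vertical axis, both in percent methylated. The 363 members (red) lie above the dashed line of a 2.5-point gap, and Gm51701 stands alone at the top with a lower knockout mean of 47.5%.

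In the opposite direction, both control means lay at least 2.5 points above both knockout means at 9 of the 14678 islands (0.0613%). A fall of this size was possible at only 874 islands, those with both control means at 2.5% or more, so this count and that of the members are not comparable. Without any minimum distance the directions were nearly balanced, with both knockouts above both controls at 3046 islands (20.8%) and below both at 2937 (20%). The 9 islands included those at Klf4, at 3.93% and 3.10% in the knockouts and 6.76% and 8.01% in the controls, and at Rpl10a, at 3.54% and 2.94% in the knockouts and 6.65% and 8.54% in the controls. Both genes were named after their values were seen. Dropping a sample loosens the rule, so all 363 islands stay: 565 islands met it without control 1 and 678 without knockout 2. The count in the other direction was 35 without control 1, 21 without control 2, 19 without knockout 1 and 17 without knockout 2.

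Membership went with a low but detectable control level. Of 562 islands whose higher control mean was between 5% and 10%, 259 (46.1%) were members and 8 moved as far the other way. Between 2% and 5% the members were 93 of 1426 islands (6.52%), and between 1% and 2% they were 9 of 10587 (0.0850%). The control level is part of the rule, so these shares describe the set and support nothing further.

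At the threshold the values were close on both sides. The members with the smallest gaps were islands inside Tex45 (2.53 points), inside Adgrl2 (2.53 points) and at Calhm3 (2.54 points). Islands just outside lay inside Tmem79 (2.48 points) and at Gm10269 (2.48 points) and Gm7389 (2.46 points). The Tmem79 island shows what the rule leaves out, since its knockouts read 23.3% and 7.87% against 3.38% and 5.39% in the controls.

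In the median member the difference was seen at many cytosines. In the 363 islands 33375 cytosines had a value in all samples. Cytosines read as fully unmethylated made up 12.8% and 16.1% of them in the knockouts, against 36.7% and 42.6% in the controls. Cytosines above 20% and up to 50% made up 25.5% and 15.8% in the knockouts and 3.16% and 2.63% in the controls. Levels above 50% stayed rare in every sample, at 0.488% and 0.363% of cytosines in the knockouts and 0.0869% and 0.129% in the controls. These classes pool all members and do not show the spread within 1 island. In the median member 46.0% of the cytosines had both knockout values above both control values, against 2.42% in the median other unmethylated island. In the other islands 81.1% and 80.4% of cytosines read 0 in the knockouts and 80.2% and 80.6% in the controls. Ties at 0 cannot count as higher, so the 2 shares also differ through the level of the islands. The cytosines of the members are those that chose the islands, so these values describe the set. Both strands were alike. Over 15025 CpGs with both cytosines measured, the plus strand averaged 14.7% and 11.7% in the knockouts and 5.83% and 5.05% in the controls, and the minus strand 14.2% and 11.5% in the knockouts and 5.60% and 4.90% in the controls.

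Within islands the gain reached the centre. Each island was cut into 5 equal parts, and in the central part the 357 islands measured there averaged 14.5% and 11.5% in the knockouts and 5.32% and 4.37% in the controls. The difference was 8.16 points in the central part and 7.496 points in the 2 outer parts. In the central part alone, both knockouts were above both controls at 303 of these 357 islands, and by at least 2.5 points at 214. The cytosines of this part helped to choose the islands, so an excess in this direction follows in part from the rule. The central parts of the other unmethylated islands were not counted in this way. Over whole islands, both knockouts were above both controls at 20.8% of all unmethylated islands.

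Outside the islands the direction turned. In the first 500 bp beyond the edge the level was 22.4% and 19.4% in the knockouts and 23.2% and 25.2% in the controls, a difference of -3.26 points. These first 500 bp differed by position. Around members inside a gene with no start nearby they had 23.1% and 20.1% in the knockouts and 25.5% and 27.8% in the controls. At protein-coding starts the groups overlapped, with 21.5% and 18.5% in the knockouts and 20.2% and 21.4% in the controls, and they overlapped at pseudogene ends. In the next 500 bp the level around all members was 33.6% and 32.8% in the knockouts and 53.7% and 57.8% in the controls. In the 1000 bp after that it was 38.1% and 38.7% in the knockouts and 68.4% and 72.9% in the controls. The sequence around the islands thus lost methylation in the same samples in which the islands were higher. Flanks of the other unmethylated islands were at 38.0% and 38.8% in the knockouts and 70.2% and 75.2% in the controls in this outermost 1000 bp, close to those of the members. In the first 500 bp the other islands had 10.2% and 9.75% in the knockouts and 14.4% and 16.0% in the controls, so the edges of the members were more methylated in every sample.

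**Figure D2:**
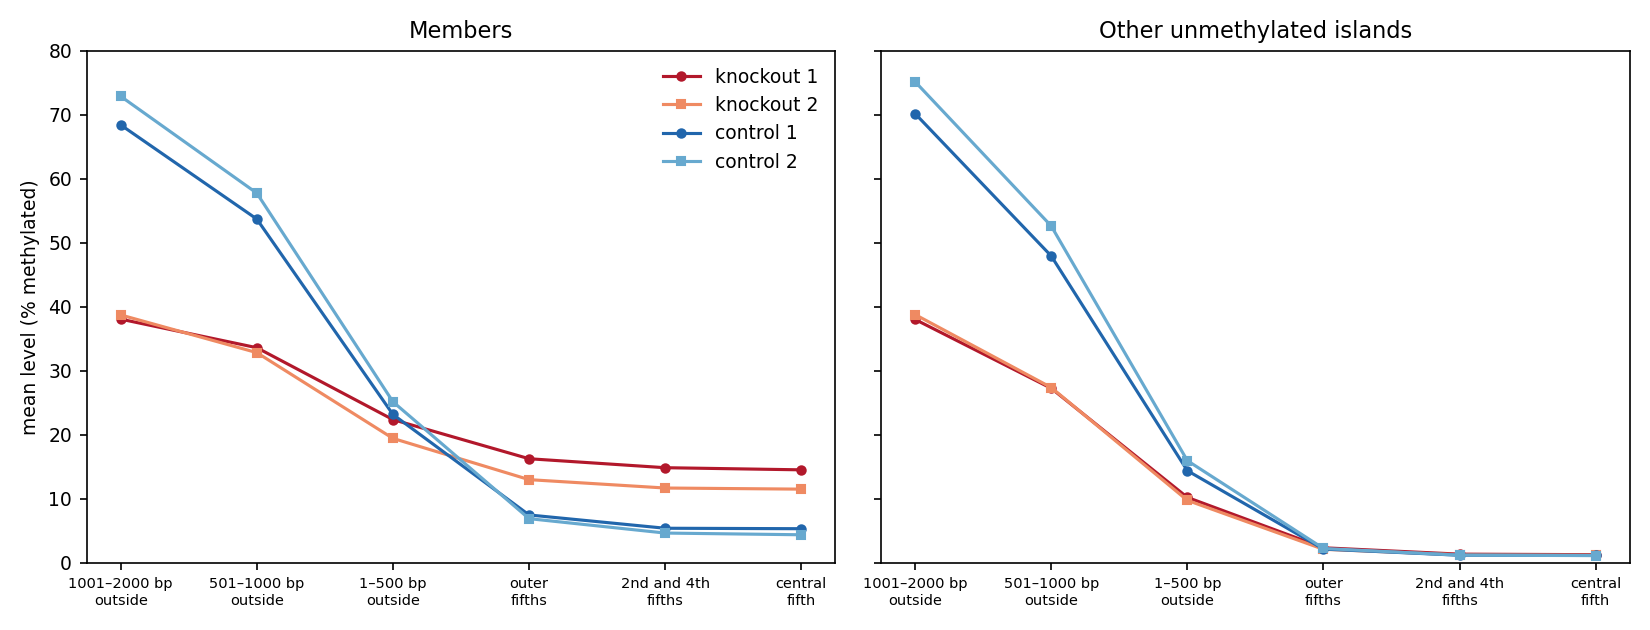
Mean percent methylated per sample in 3 bins reaching 2000 bp outside an island and in its 5 equal parts, for members (left) and for the other unmethylated islands (right). The knockout lines lie below the control lines outside the members and above them within, while all 4 lines lie together between 1.13% and 2.34% inside the other islands.

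The islands of the set were small. Their median length was 718 bp with 42 listed CpGs, against 1074 bp and 76 CpGs for the other unmethylated islands. CpG density was 6.24 per 100 bp in the median member and 7.01 in the median other island. Of islands with 30 to 39 CpGs, 9.38% were members, and of islands with 100 or more, 0.499%.

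Most members lay away from annotated promoters. Of the 363, 197 (54.3%) lay inside a gene with no gene start within 1000 bp, 79 (21.8%) at the start of a protein-coding gene, 69 (19.0%) at the start of a gene of another biotype only, and 18 (4.96%) outside genes. Among the other unmethylated islands 78.9% lay at protein-coding starts and 11.8% inside genes without a start nearby. The 2 sets also differ in control level, which the rule uses. The higher control mean was between 5% and 10% at 71.3% of members and 2.12% of the others. Position, size, CpG density and promoter motifs were not compared at matched control levels, so they may go with that level. Where the gene table gave no strand, either end counted as a start, and the strand was known for 56 of the 79 members at protein-coding starts. The exon structure of the genes was not used here. Of 143 members inside a single protein-coding gene of known strand, 75 (52.4%) lay in the last of 5 equal stretches of the gene and 2 in the first. For the other unmethylated islands of this kind the shares were 26.8% in the last and 23.2% in the first.

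**Figure D3:**
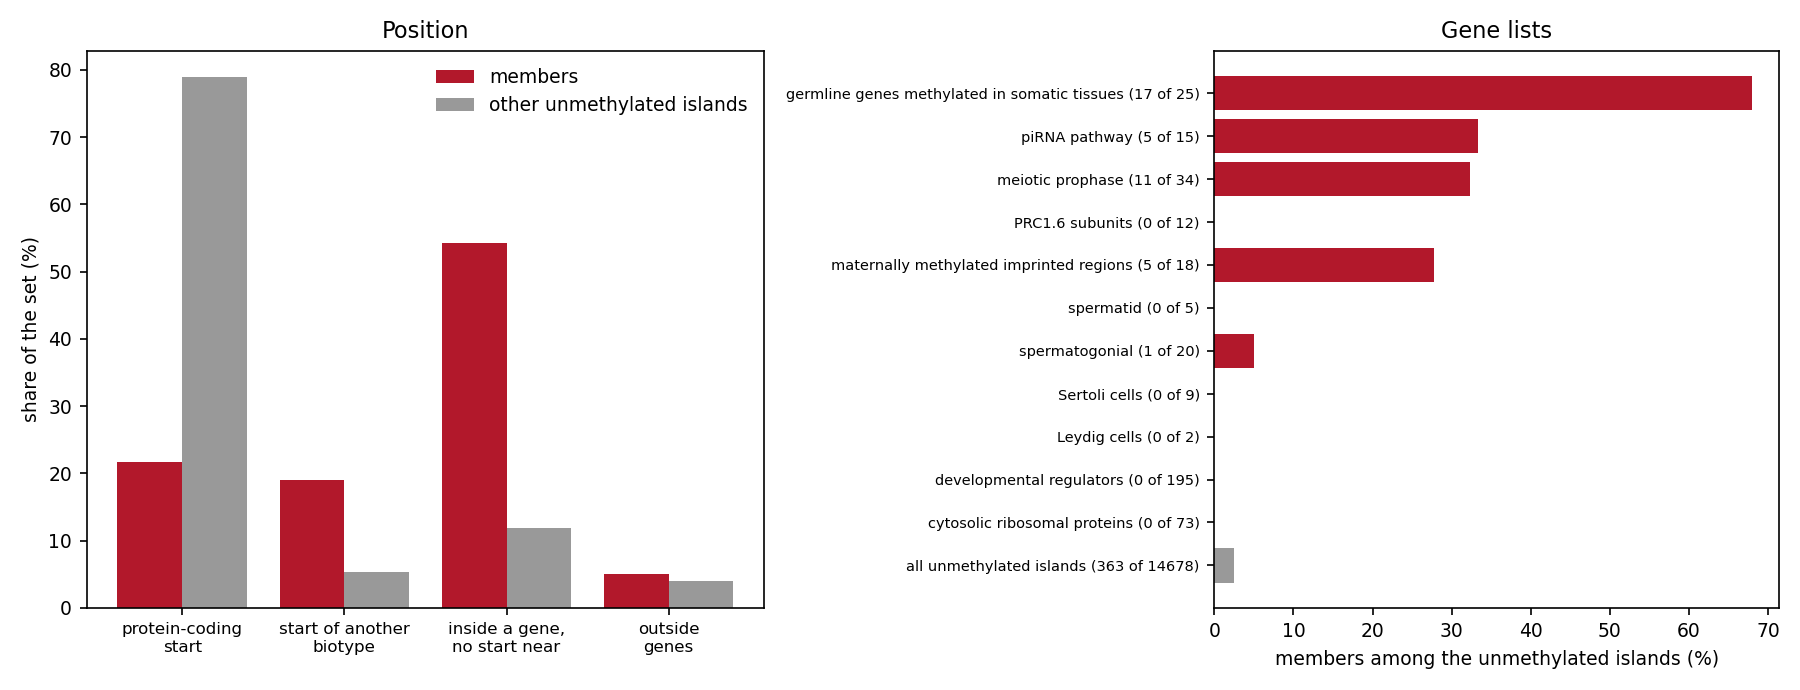
Left, share in percent of the members (red) and of the other unmethylated islands (grey) in each position class; 54.3% of members and 11.8% of other islands lie inside a gene away from starts. Right, percent of the unmethylated islands of each gene list that are members, with their counts, above all unmethylated islands in grey (2.47%).

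The 15 largest gaps included 4 protein-coding starts. The island with the largest gap, at the lncRNA gene Gm51701 (chr9:123924361-123925849), had 47.5% and 48.8% in the knockouts and 5.10% and 5.24% in the controls over 94 CpGs. It stood apart from all other members, and 93.3% of its cytosines had both knockouts above both controls. Its second of 5 parts was highest in the knockouts, at 60.5% and 65.0%, against 1.61% and 1.17% in the controls. Without it the mean over the remaining 362 members was 14.9% and 11.8% in the knockouts and 5.75% and 4.95% in the controls.

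The island at Jade1 (chr3:41555359-41555849), a scaffold of the HBO1 histone acetyltransferase complex, had 28.3% and 21.4% in the knockouts and 5.997% and 2.37% in the controls. At Naa11 (chr5:97391852-97392498), which encodes a catalytic subunit for N-terminal acetylation, the values were 23.8% and 22.2% in the knockouts and 7.27% and 4.94% in the controls. Ankrd31 (chr13:96748125-96748756), needed for meiotic DNA breaks in mice, had 18.9% and 17.2% in the knockouts and 1.93% and 2.59% in the controls. In these 3 islands the groups are separated by more than the distance between samples of a group. Trim52, a RING-finger gene, was at 20.4% and 18.4% in the knockouts and 7.86% and 7.36% in the controls.

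Pseudogenes supplied 6 of the 15. They were Gm9755, Gm13445, Rps2-ps7, Gm8203, Gm18934 and Gm9824, and their knockout means ranged from 16.4% to 25.1% against 1.54% to 9.22% in the controls. Islands inside genes supplied 3, in Ano8 of the anoctamin family, in Ttc22 and in Hs3st3b1, a heparan sulfate sulfotransferase gene. The Ano8 island (chr8:71484324-71484863) had 17.0% and 16.9% in the knockouts and 3.16% and 3.74% in the controls, so samples of the same group nearly coincided. The 15th island lies within the imprinted Gnas locus at the higher-coordinate boundary of the antisense gene Gnasas1 (chr2:174296054-174296545). Gnas runs on the plus strand, so this boundary is on the side where an antisense gene starts. The island had 17.6% and 12.7% in the knockouts and 2.40% and 2.42% in the controls.

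**Figure D4:**
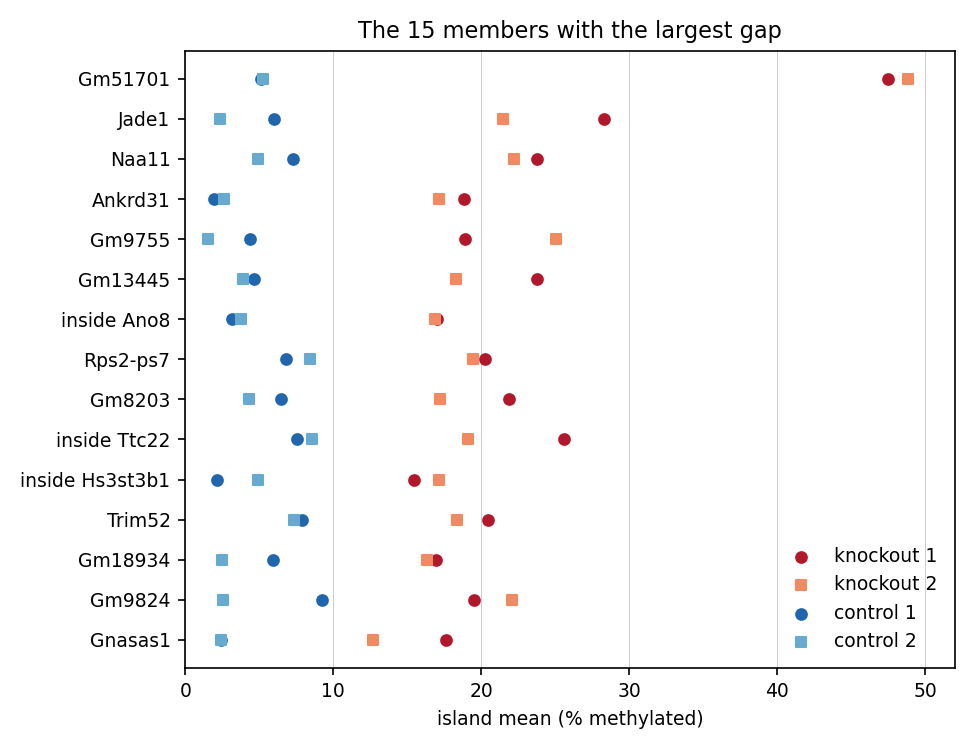
Island means in percent methylated for the 15 members with the largest gap, in the 2 knockouts (red, orange) and the 2 controls (blues). All knockout points lie at 12.7% or above, and all control points at 9.22% or below, because the rule requires separation.

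Genes of the germline whose islands somatic cells methylate formed the list with the largest share of members. Of 25 unmethylated islands at genes of this list, 17 (68.0%) were members, against 2.47% of all unmethylated islands. The median difference over the 25 was 8.01 points, against -0.00842 points over all unmethylated islands. Both knockouts were above both controls at 22 of the 25, against 20.8% of all unmethylated islands. The list was chosen with earlier results of these data known, so this count is not independent evidence. The 17 members averaged 17.1% and 14.1% in the knockouts and 5.79% and 4.85% in the controls.

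Meiotic chromosome genes were among them. The island of Sycp3 (chr10:88459396-88460067), a component of the chromosome axis, had 16.9% and 17.0% in the knockouts and 3.67% and 8.52% in the controls. The island of Sycp1 (chr3:102935150-102936392), which forms the transverse filaments of the synaptonemal complex, had 17.8% and 10.7% in the knockouts and 4.045% and 3.77% in the controls. Majin, which attaches meiotic telomeres to the nuclear envelope, had 14.0% and 14.5% in the knockouts and 8.03% and 2.83% in the controls. The knockouts agreed closely at Sycp3 and Majin, where the controls did not, and differed at Sycp1, where the controls coincided. Meioc, a regulator of meiotic prophase, was nearer the threshold, at 8.52% and 7.07% in the knockouts and 3.77% and 3.81% in the controls.

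Stra8 and Dazl, which act at meiotic entry, were members as well. The Stra8 island (chr6:34921190-34922051) had 24.9% and 12.9% in the knockouts and 5.72% and 1.94% in the controls. The knockouts differed by more than the gap of 7.17 points, and if the transgene holds part of this island, its reads and the native ones cannot be told apart. The Dazl island (chr17:50292437-50294238) had 12.9% and 8.66% in the knockouts and 5.004% and 2.84% in the controls.

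piRNA pathway genes, which silence transposons in the germ line, had 5 members among 15 unmethylated islands (33.3%). Of these members, Mael, Mov10l1, Fkbp6 and Tdrd1 are on the germline list too, so the 2 counts are not separate results. The 10 other islands of the list averaged 5.28% and 3.11% in the knockouts and 3.47% and 2.38% in the controls. At Mael (chr1:166238195-166239149) the values were 15.6% and 17.9% in the knockouts and 1.44% and 6.47% in the controls. Mov10l1, an RNA helicase gene, had 21.9% and 15.01% in the knockouts and 7.62% and 7.34% in the controls. Fkbp6, a co-chaperone gene, had 14.3% and 12.96% in the knockouts and 6.31% and 5.20% in the controls. Tdrd1, a Tudor-domain gene, and Henmt1, which methylates the ends of piRNAs, completed the group at smaller gaps, of 4.13 and 2.95 points.

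The remaining members of the germline list were at Sohlh2, a transcription factor of spermatogonia, Dpep3, Tuba3a, a testis alpha-tubulin, Brdt, a testis bromodomain protein, and the mitochondrial carrier Slc25a31, with gaps from 4.08 to 8.04 points, beside Naa11 above. Sohlh2 was also the sole member among 20 unmethylated islands of spermatogonial genes. Some islands of the list that missed the rule had knockout means above both controls. The Stk31 island had 19.9% and 9.41% in the knockouts and 6.34% and 6.97% in the controls, with a gap of 2.44 points, and the Hormad1 island 17.7% and 8.97% in the knockouts and 6.85% and 5.63% in the controls. At Ddx4, the germ cell helicase gene, knockout 2 lay below both controls, with 15.8% and 5.51% in the knockouts and 8.34% and 6.58% in the controls. The Tdrkh island stayed low in all samples, at 1.73% and 1.80% in the knockouts and 1.86% and 2.22% in the controls.

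**Figure D5:**
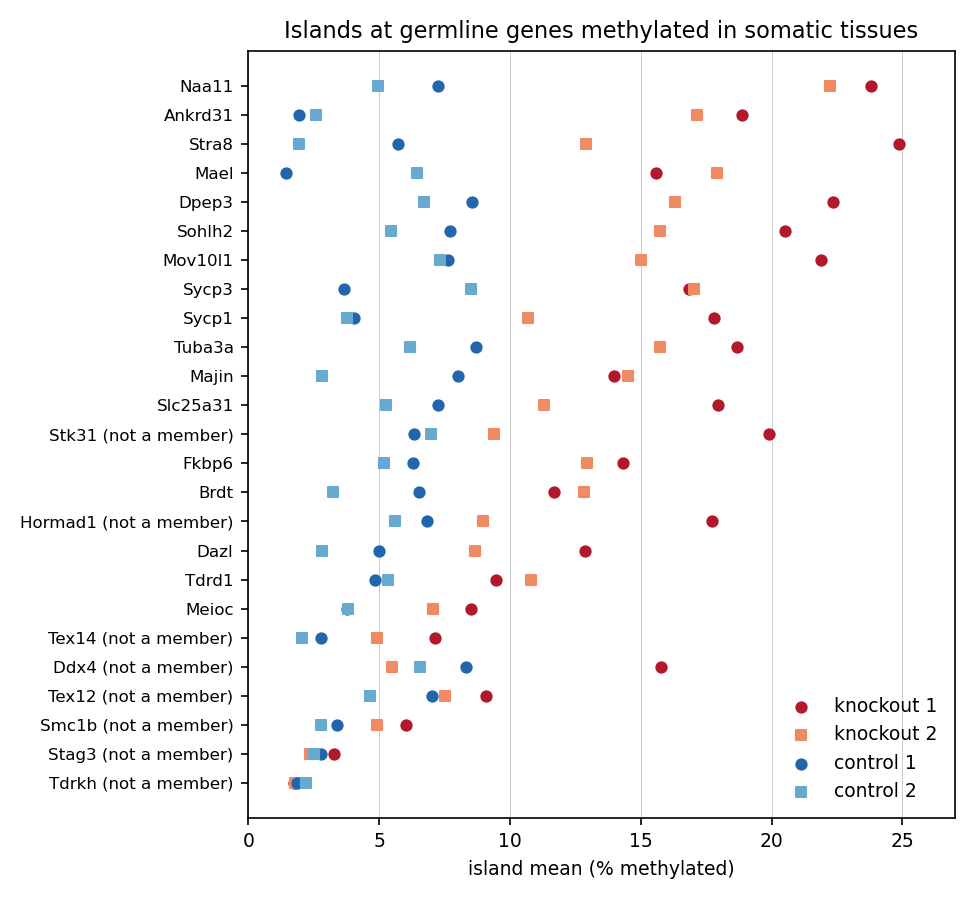
Island means in percent methylated at the 25 unmethylated islands of germline genes methylated in somatic tissues, in the 2 knockouts (red, orange) and the 2 controls (blues), ordered by the difference. The 17 members have both knockout points to the right of both control points, and knockout 2 lies below both controls at Ddx4.

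The meiotic prophase list had 11 members among 34 unmethylated islands (32.4%), of which 6 are on the germline list too. Its other members were Sycp2, of the chromosome axis, Spata22, of meiotic recombination, Iho1, of break formation, Rnf212, of crossover formation, and Zcwpw1, a histone reader. Sycp2 (chr2:178406973-178407925) had 13.8% and 12.99% in the knockouts and 6.27% and 3.94% in the controls. Spata22 (chr11:73329392-73329981) had 16.2% and 13.2% in the knockouts and 5.61% and 5.48% in the controls. Iho1 had 13.5% and 9.90% in the knockouts and 4.74% and 1.92% in the controls. Rnf212 and Zcwpw1 had gaps of 3.60 and 2.57 points. At the Rnf212 promoter window itself the groups overlapped, with 8.95% and 6.15% in the knockouts and 7.10% and 6.80% in the controls, and they overlapped at both Zcwpw1 windows. The median difference over all 34 islands was 1.48 points, so many islands of this list did not move as far as the members.

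Of the other lists, 6 held no member, against a share of 2.47% over all unmethylated islands. None of 195 unmethylated islands at developmental regulators was a member, and none of 73 at cytosolic ribosomal protein genes, 12 at PRC1.6 subunit genes, 9 at Sertoli cell genes, 5 at spermatid genes or 2 at Leydig cell genes. At the share over all islands the short lists would hold few members or none, so nothing is read from their counts of 0. Median differences of these lists lay between -0.298 and 0.390 points.

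Maternally methylated imprinted regions differ between germ cells and somatic cells. Among 18 unmethylated islands at the starts of genes listed for such regions, 5 were members (27.8%), against 2.47% of all unmethylated islands. These 5 were at Kcnq1ot1, Zrsr1 with Commd1, Peg10, Gnas and Mcts2. An island at a listed gene's start need not be the imprinted region itself. The Inpp5f island, for example, had 1.37% and 1.35% in the knockouts and 1.30% and 1.46% in the controls. The island at Gnasas1 described above is not counted, since that gene is not on the list. Over the 18, the mean level was 7.91% and 5.38% in the knockouts and 4.17% and 2.96% in the controls. Both knockouts were above both controls at 12 of the 18, against 20.8% of all unmethylated islands. Kcnq1ot1 (chr7:143295122-143296507), an imprinted antisense RNA, had 9.48% and 10.7% in the knockouts and 4.44% and 3.44% in the controls. The island that holds the starts of Zrsr1 and Commd1 had 7.15% and 6.51% in the knockouts and 2.17% and 2.23% in the controls. Within it, the Commd1 promoter window had 7.64% and 8.57% in the knockouts and 1.04% and 1.95% in the controls. At the Zrsr1 window the groups overlapped, with 5.84% and 5.67% in the knockouts and 3.64% and 6.55% in the controls. Peg10 had 9.24% and 6.03% in the knockouts and 1.63% and 2.10% in the controls. Mcts2 and Gnas had gaps of 2.63 and 2.83 points. The groups overlapped at other islands of the list. Peg3 had 9.33% and 3.997% in the knockouts and 9.41% and 3.69% in the controls. The low control levels go with the germ cell label of the samples. DNA from somatic cells is methylated at the imprinted regions themselves, which not every island counted here need be, and at the germline list. Its share in each sample was not tested.

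Pseudogene ends without a protein-coding start nearby held 54 members among 240 unmethylated islands (22.5%). These members averaged 15.7% and 12.5% in the knockouts and 5.94% and 4.82% in the controls. The other 186 such islands averaged 5.29% and 3.42% in the knockouts and 3.05% and 2.74% in the controls. How reads of near-identical gene copies were placed by the aligner is not given in the sources used here, so the levels of single pseudogenes are uncertain. Without pseudogene ends 309 members remain, at a median difference of 7.56 points.

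Chromosome 18 held more members than its share of islands. There 25 of 454 unmethylated islands (5.51%) were members, while the other autosomes ranged from 1.39% on chromosome 4 to 3.54% on chromosome 15. The excess lay in the clustered protocadherin genes, which encode neuronal adhesion proteins in tandem alpha, beta and gamma arrays and were singled out after the values were seen. In this cluster 19 of 49 unmethylated islands were members, against 6 of 405 on the rest of the chromosome (1.48%). The 19 islands averaged 10.7% and 10.1% in the knockouts and 4.57% and 3.35% in the controls. Unlike around other members, the level in the first 500 bp outside was also higher in the knockouts, at 15.6% and 12.05%, against 9.57% and 8.42% in the controls. Tandem copies resemble each other in sequence, so these islands may share reads.

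The promoter windows of the members differed from those of other unmethylated islands in motif content. The hexamer CACGTG, an E-box that dimers of MAX bind, occurred on either strand in 18 of 69 protein-coding promoter windows with a start within 1000 bp of a member (26.1%). It occurred in 10.7% of 11277 windows at other unmethylated islands and in 7.89% of 20085 autosomal windows. At members of the germline list 10 of 18 windows held it, and these 10 are among the 18 member windows counted above. This list was chosen with earlier results of these data known, so the share over all members depends in good part on it. The share at members off the list was not computed. Some genes contribute more than 1 window, and Fkbp6, Tdrd1 and Fam178b each hold the motif in more than 1. The Sycp3 window shown above holds 2 copies, the first starting 64 bases before the gene start, and the Mael window holds 1 copy, 223 bases before the start. GCGGGA, an E2F-type motif, was found in 24.6% of member windows, 41.0% of windows at other unmethylated islands and 26.3% of all windows. GGGCGG, the SP1 box, which can overlap GCGGGA, was found in 56.5%, 71.2% and 47.0% of the same sets, and TATAAA in 8.70%, 5.78% and 12.7%. Member windows had a median GC content of 59.7% and 17 CpGs, against 63.3% and 23 CpGs at other unmethylated islands. These matches describe letters in the window and no binding.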

How the data were processed

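Post-bisulfite adaptor tagging libraries were made from germ cells passed through a 95 µm mesh, per the labels' protocols. The authors deposited 1 table with the percent of methylated reads at each cytosine of a CpG in 4 samples, on build mm10 per the submitters' processing notes. A minimum of 10 reads per cytosine stands in its title. For the aligner, caller and read depth, values were not given in the sources used here, so all values had equal weight.

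Adjacent positions were paired as 1 CpG, and islands, means and members followed the rule in the text. Of 16069 autosomal islands 15995 had at least 10 CpGs measured. No sample column repeated another. Gene starts and promoter sequences came from RefSeq for GRCm38.p6, where all 622570 listed cytosines tested in promoter windows lay on a CG. Where no strand was given, either gene end counted as a start. Flanks needed 3 cytosines outside every island.

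Named islands are the 15 largest gaps, those at listed genes and 3 on each side of the threshold. Others, among them those in the opposite direction, on the X chromosome and in the closing section, were named after their values were seen. Members and lists were chosen with earlier results of these data known. The island finder was tested on simulated data. The replicate numbers were not used to pair samples. Alternatives changed the gap, the control limit, the run length, the averaging, the distance to a start and the samples used. Computation used NumPy 2.4.6 and pandas 2.3.3 under Python 3.11.15, with figures from Matplotlib 3.10.9.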

Additional observations from a re-analysis of the deposited data

Results flagged for a closer look

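Cytosines of the member islands without a value in at least 1 sample took no part in choosing the islands. Each sample was averaged over those it did measure, between 2108 and 3112 of 4880. The means were 14.5% and 11.4% in the knockouts and 6.11% and 5.18% in the controls, a difference of 7.29 points above the controls. They come from the same libraries and islands, and the samples cover partly different cytosines.

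The X chromosome lies outside the rule. Of its 129 unmethylated islands in the listed positions, 2 met the same conditions. The island inside Nyx had 15.4% and 9.25% in the knockouts and 5.92% and 3.17% in the controls, and that inside Gm39496, with 11 CpGs measured, had 7.35% and 9.38% in the knockouts and 3.38% and 1.28% in the controls.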

How the results depend on the processing

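The number of members depended on the thresholds. It was 146 with a gap of at least 5 points, 632 with 1 point, and 104 with both control means under 5%. With runs of 20 CpGs it was 1658, and with runs of 40 CpGs 107. Islands past the gap in the other direction numbered 0, 82, 1, 57 and 3 under these 5 settings. With 1 sample left out the members ranged from 412 to 678, the islands in the other direction from 17 to 35, and the median difference from 5.38 points, without knockout 1, to 7.64 points. The share of members at gene starts was 40.8%, and 33.5% with runs of 20, 33.6% with runs of 40, 35.5% with starts within 250 bp, and 30.4% without pseudogene ends, an alternative added after seeing the data. The share at germline list genes was 4.68%, and 8.90% with a gap of 5 points and 1.03% with runs of 20. Median length was 664 bp with a gap of 5 points, 766 bp with 1 point and 784 bp with runs of 40. The difference in the 2000 bp around members was -19.2 points, and -16.6 points with controls under 5%, -24.0 with runs of 20 and -14.6 with runs of 40. Why these values moved was not tested, beyond the settings' own construction, which admits more or fewer islands. Averaging over CpGs gave 361 members, using each sample's own cytosines 355, and a minimum of 20 CpGs 353. No paired analysis was possible because no result comes from a test in which the shared replicate numbers could be a block. Unknown read depth limits every single value, and 2 samples per group limit every spread.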

Other observations

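Several members at protein-coding starts, named after their values were seen, carry the names of copies of other genes. Eif4a3l1 had 17.7% and 16.4% in the knockouts and 9.88% and 8.59% in the controls. Pabpc6 had 18.005% and 8.94% in the knockouts and 4.42% and 3.96% in the controls, and Wdr20rt had 16.3% and 11.1% in the knockouts and 5.42% and 6.58% in the controls.

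Klf5, a transcription factor gene, and Topaz1, a germ cell gene, were also chosen after seeing their values. Klf5 had 20.5% and 12.5% in the knockouts and 2.75% and 2.23% in the controls. Topaz1 had 11.9% and 14.2% in the knockouts and 5.44% and 3.96% in the controls. Members were mostly scattered, and 26 of the 363 had another member within 10 kb, 10 of them in the protocadherin cluster.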
